A study of Homo sapiens with 8 samples.

Results

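BRAF knockdown in normal medium was read as the difference between 2 arrays of A375 cells, out of 8 arrays in the series. A375 is a human melanoma line that carries an activating BRAF mutation. The array labelled siBRAF/Normal held RNA of cells transfected with siRNA against BRAF, and the array labelled siCont/Normal held RNA of cells given nontargeting siRNA. Both cultures were kept for 18 h in RPMI1640 that contained glutamine and 10% fetal bovine serum, with kanamycin. The other arrays used here included siBRAF/GlnF and siCont/GlnF, from cells given siRNA of the same 2 kinds and then 18 h without glutamine. The last was siATF4/Normal, from cells with siRNA against the stress factor ATF4. The number and sequence of the siRNAs are not given in the sources used here, and effects outside the intended target were not tested. Each condition had 1 array, so no difference below has a replicate check or a p-value, and each describes a pair of arrays. Expression was read on Affymetrix arrays as probe set intensities, which rise with the amount of transcript. A difference is siBRAF minus siCont on the scale log2(intensity + 1), where 1 is a 2-fold difference, and intensities are not compared between genes.

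BRAF is a kinase at the head of the MAPK cascade, in which RAF proteins activate the MEK kinases and these activate ERK. ERK drives transcription factors of the ETS and AP-1 families, cyclin D and MYC, and also induces phosphatases and adaptors that restrain the cascade. In melanoma the mutated kinase keeps the cascade active without a growth factor. Melanocytes arise from the neural crest, and melanoma cells can take up more differentiated or more crest-like expression states.

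Of 19775 genes named by a probe set with 1 gene symbol, 13374 reached the array median on at least 1 of the 2 arrays and received a difference. Of these, 974 (7.28%) were at least 2-fold higher with siBRAF and 1019 (7.62%) at least 2-fold lower, 14.9% either way, and the median difference was -0.0043. The 2 directions had similar counts at 2-fold and at 4-fold (237 higher, 234 lower). At 16-fold 23 genes were higher and 4 lower, of which 11 and 3 reached the median on both arrays. The SD across genes was 0.806, against 0.195 between the siBRAF arrays of both media and 0.280 between siATF4 and siCont in normal medium, a pair that shares the siCont array. The 2 arrays had 3' minus 5' actin control values of 0.183 with siBRAF and 0.158 with siCont, and GAPDH values of 0.133 and 0.110 in that order. The level of BRAF is not analysed here, so the siBRAF label was not checked on its target. Among melanoma markers SOX10 read 1027 with siBRAF and 776 with siCont, and MITF 567 and 254. The pigment genes MLANA and TYRP1 lay below the median on both arrays, and PMEL (15.8 with siBRAF, 20.0 with siCont) and TYR (17.7 and 17.7) near it, so the cells carried lineage factors of melanocytes with low pigment gene signals.

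**Figure D1:**
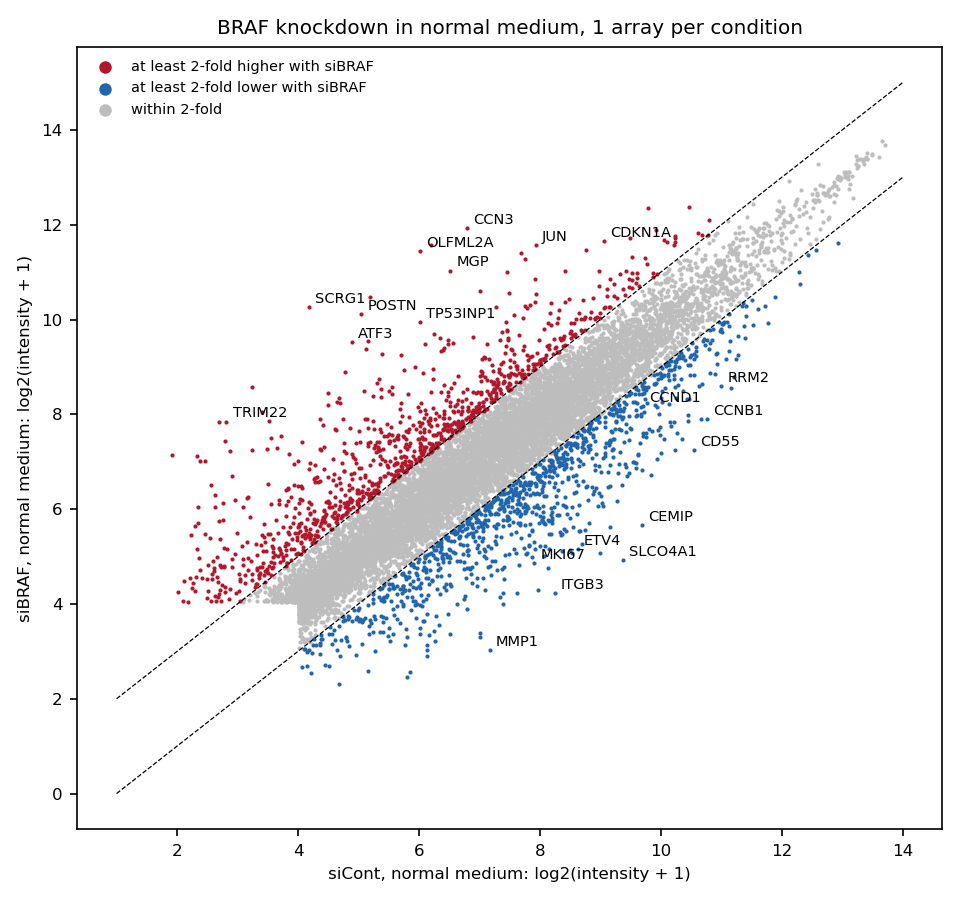
Levels of 13374 genes on the array of siBRAF cells (vertical) against the array of siCont cells (horizontal), both in normal medium, as log2(intensity + 1), with dashed lines at a 2-fold difference. The 974 red genes lie at least 2-fold higher and the 1019 blue genes at least 2-fold lower with siBRAF; genes far from the lines on the left of the plot had low siCont signals.

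Part of the genes that ERK is known to induce were lower with siBRAF. Of 18 genes listed as ERK pathway feedback inhibitors, 8 were at least 2-fold lower and 0 higher, with a median of -0.54. The list is broad and also holds IER3 (-1.64) and PEA15 (0.63), so it does not count ERK-induced inhibitors alone. DUSP6, a phosphatase that removes the activating phosphates from ERK in the cytoplasm, had an intensity of 320.3 with siBRAF against 1411 with siCont, a difference of -2.14. Its nuclear relative DUSP4 read 297 with siBRAF and 1123 with siCont. The Sprouty adaptors, which restrain signalling between receptors and RAF, differed in size: SPRY4 read 36.4 with siBRAF against 225 with siCont, SPRY1 16.7 against 54.8, and SPRY2 556 against 1144. The related SPRED proteins, which hold RAS inactive through neurofibromin, had 1 member past 2-fold, SPRED2 at 135 against 326 (-0.69 as the mean of its probe sets). SPRED1 at 440.4 against 495 and SPRED3 at 62.1 against 77.0 were within 2-fold. ERRFI1, an inhibitor of the EGF receptor family, read 467 with siBRAF against 1802 with siCont. Members within 2-fold included DUSP5 (-0.31), DUSP1 (0.51) and DUSP10 (0.99), a phosphatase that acts mainly on the JNK and p38 kinases.

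Among 27 transcription factors known as ERK-driven, 9 were at least 2-fold lower and 5 higher, with a median of -0.28. ETV4 and ETV5, ETS factors of the PEA3 group, had the lowest differences of the list. ETV4 had an intensity of 34.6 with siBRAF against 394 with siCont, ETV5 of 33.9 against 327, and ETV1, of the same group, of 87.6 against 435. FOSL1, the AP-1 subunit that ERK stabilises, read 76.2 with siBRAF against 267 with siCont, and the small MAF protein MAFF 81.9 against 476. MYC read 45.5 with siBRAF against 133 with siCont, and the chromatin proteins HMGA1 and HMGA2 differed by -2.16 and -1.58. Several immediate early genes, which growth factors induce within minutes, showed smaller differences. FOS (23.7 with siBRAF, 23.4 with siCont), JUNB (127 and 126) and EGR1 (170.2 and 95.6) were within 2-fold, and so was EGR3 (59.2 and 118, a difference of -0.98).

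The AP-1 family was split between its subunits. JUN had an intensity of 3058 with siBRAF against 243 with siCont, a difference of 3.65, and its 4 probe sets lay between 3.24 and 4.57. The partner ATF3 read 738 with siBRAF against 28.7 with siCont, a difference of 4.63, although 1 of its 3 probe sets gave 0.60. JUND (1.11) and FOSL2 (1.35) were also at least 2-fold higher, JUND at 0.49 as the mean of its probe sets. Without glutamine JUN read 2858 with siBRAF and 3049 with siCont, and ATF3 950.2 and 551, so both genes were high on that siCont array. Of 17 kinases and adaptors of the cascade itself with a value, 1 was higher (KSR2, 1.40, with a siCont signal below the median). Another 2 were lower, RPS6KA1 (-1.16) and HRAS (-1.05), beside 7.28% higher and 7.62% lower over all genes. MAP2K1, which encodes MEK1, differed by -0.88, and MAPK3, which encodes ERK1, by 0.13.

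**Figure D2:**
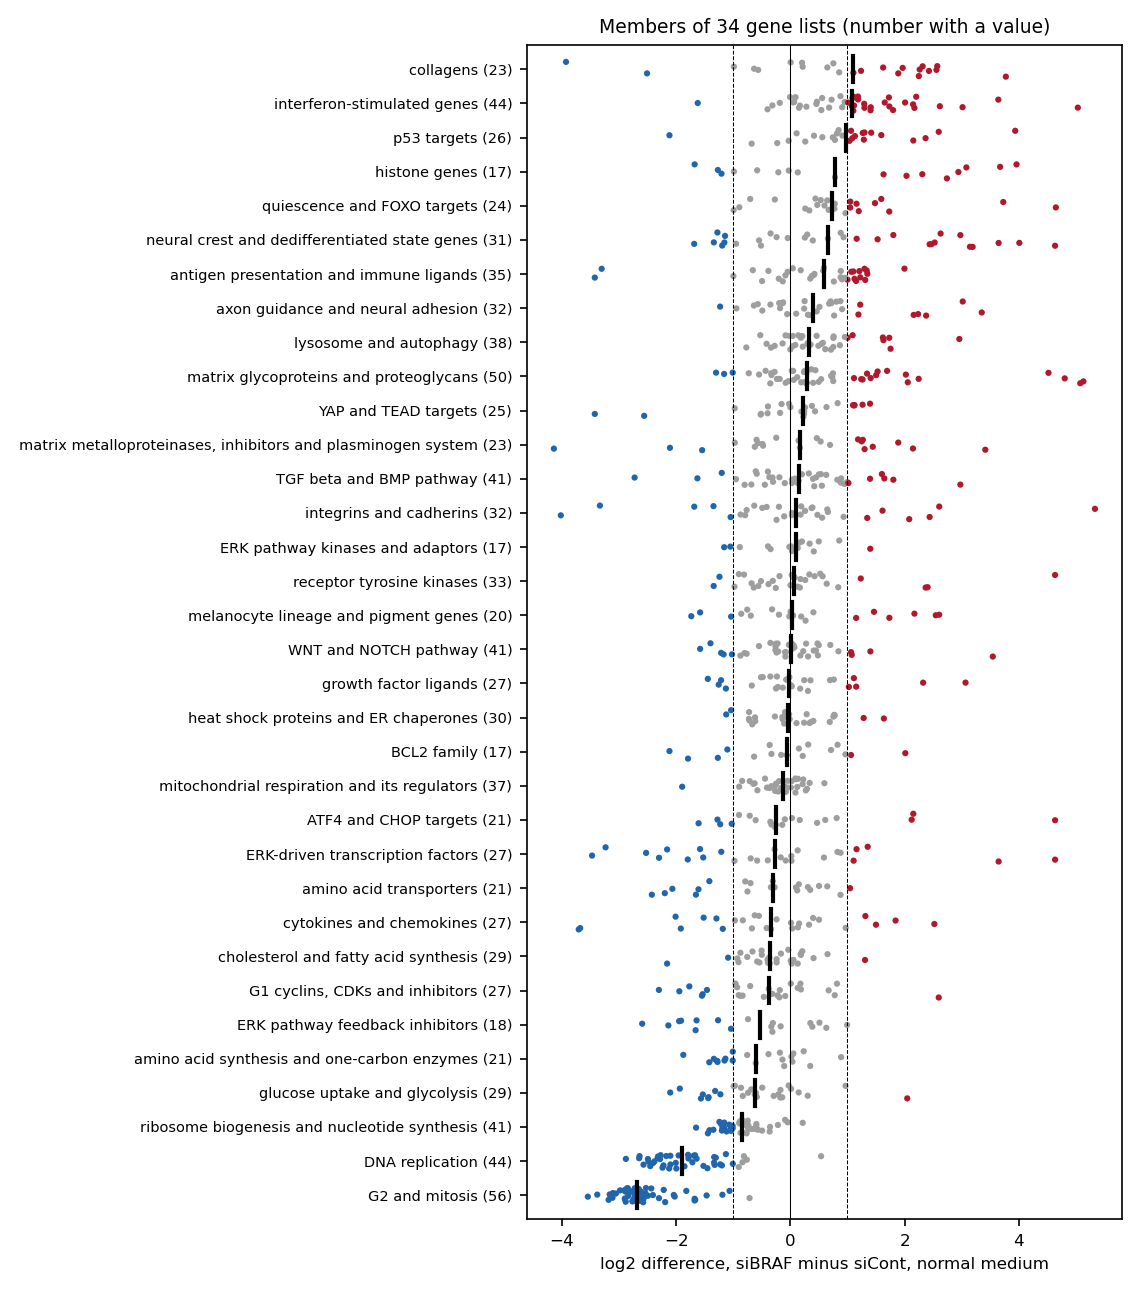
Difference of each gene with a value (points) in 34 lists, siBRAF minus siCont in normal medium on the log2 scale, with the number of genes in brackets and the list median as a black bar. Red and blue points are at least 2-fold higher and lower with siBRAF; G2 and mitosis (median -2.68) and DNA replication (-1.90) lie lowest, and collagens (1.10) and interferon-stimulated genes (1.08) highest; with no filter on low signals the collagen median is 0.43.

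Genes of cell division were lower with siBRAF across nearly the whole program. Of 56 genes of G2 and mitosis, 55 were at least 2-fold lower and 0 higher, with a median of -2.68, and the exception was the phosphatase gene CDC25B (-0.71). The lowest was NUF2, a subunit of the kinetochore complex that binds microtubules, at 48.1 with siBRAF against 572 with siCont. The checkpoint kinase gene BUB1 read 25.9 with siBRAF against 279 with siCont. BUB1B, which encodes the checkpoint protein BUBR1, read 70.7 against 619, and ASPM, a spindle pole protein, 105 against 913. The mitotic cyclins CCNA2, CCNB1 and CCNB2 differed by -2.73, -2.86 and -2.61, and their kinase CDK1 by -2.43. CCNB2 was at -0.998 as the mean of its probe sets. The master regulators of the program were lower too: FOXM1 read 36.1 with siBRAF against 272 with siCont and MYBL2 80.7 against 260.2. BUB3 (-1.06) and INCENP (-1.19) were nearest to the threshold among the 55, and BUB3 was at -0.06 without shared probe sets. In bulk RNA, fewer dividing cells and less of these transcripts per cell cannot be told apart.

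Many mitotic promoters are known to carry a cell cycle homology region, CHR, with the core letters TTTGAA, which the DREAM and MuvB complexes bind to repress the gene in resting cells. RefSeq promoters of 300 bases (250 before and 50 after the annotated start, build GRCh38.p14) were matched by symbol to 10800 of the 13374 genes. On either strand, TTTGAA was found in 35 of 49 promoters of the G2 and mitosis list (71.4%), against 15.4% of all 27305 promoters in the table. It was present in 19.2% of the 814 promoters of genes at least 2-fold lower, 9.04% of those within 2-fold and 11.3% of the 778 at least 2-fold higher. Leaving out the mitosis, replication and G1 lists, it was in 16.4% of 730 promoters of lower genes. Within the list, the 35 genes with a match had a median difference of -2.67 and the 14 without one a median of -2.71. The sequences below are the 120 bases before the start of the 3 list members with the largest differences among those with a match there. Capitals mark TTTGAA or its reverse complement, which is a match of letters and not a measured binding site. They are DLGAP5, a spindle assembly factor, at chr14:55191586-55191705 on the minus strand, BUB1B at chr15:40160949-40161068 on the plus strand and ASPM at chr1:197146670-197146789 on the minus strand.
DLGAP5: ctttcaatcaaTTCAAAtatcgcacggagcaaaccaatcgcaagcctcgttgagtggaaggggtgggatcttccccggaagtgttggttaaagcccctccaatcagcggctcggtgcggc
BUB1B: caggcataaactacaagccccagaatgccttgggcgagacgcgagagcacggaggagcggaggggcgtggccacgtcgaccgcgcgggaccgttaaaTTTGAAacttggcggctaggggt
ASPM: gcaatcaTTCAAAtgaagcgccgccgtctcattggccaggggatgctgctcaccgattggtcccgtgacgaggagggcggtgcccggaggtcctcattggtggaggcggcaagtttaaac
The match began 109 bases before the start in DLGAP5, 23 before it in BUB1B and 113 before it in ASPM. DLGAP5 had an intensity of 46.4 with siBRAF against 429 with siCont, a difference of -3.18.

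DNA replication genes followed, with 39 of 44 at least 2-fold lower, 0 higher and a median of -1.90. MCM10, which helps to start the replicative helicase, was lowest at 30.9 with siBRAF against 234 with siCont. The 6 subunits of the MCM helicase were all at least 2-fold lower, with MCM5 (-2.48) the lowest and MCM3 (-1.69) the nearest to 0. The large and small subunits of ribonucleotide reductase, which makes deoxynucleotides, read 253 against 1391 for RRM1 and 387 against 2050.1 for RRM2. TK1, which salvages thymidine, read 79.6 with siBRAF against 503 with siCont. The licensing factors CDC6 and CDT1 differed by -2.32 and -2.17, and their inhibitor GMNN by -1.23. TYMS, which makes thymidylate, lay just past the threshold at -1.01.

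E2F factors are known to control these genes through sites such as TTTGGCGC, TTTCCCGC, TTTCGCGC and TTTGGCGG. One of these letters runs, on either strand, was found in 24 of 39 promoters of the replication list (61.5%), against 3.43% of all promoters. The share was 9.83% among genes at least 2-fold lower, 5.06% within 2-fold and 3.60% among genes at least 2-fold higher. Leaving out the 3 cell cycle lists, it was 6.85% of 730 promoters of lower genes. The genes with a match had a median of -2.05 (24 genes) and those without one -1.79 (15 genes). The windows below, chosen like those above and with the E2F letters in capitals, belong to DTL, a substrate receptor of an ubiquitin ligase that degrades CDT1, at chr1:212035628-212035747 (plus strand), CDC6 at chr17:40287759-40287878 (plus strand) and GINS2, a helicase cofactor, at chr16:85688955-85689074 (minus strand).
DTL: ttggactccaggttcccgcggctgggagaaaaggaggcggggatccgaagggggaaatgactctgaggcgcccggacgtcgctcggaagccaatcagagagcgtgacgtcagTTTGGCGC
CDC6: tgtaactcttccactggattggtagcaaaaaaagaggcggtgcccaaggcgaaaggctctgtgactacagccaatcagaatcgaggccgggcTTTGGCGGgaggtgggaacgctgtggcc
GINS2: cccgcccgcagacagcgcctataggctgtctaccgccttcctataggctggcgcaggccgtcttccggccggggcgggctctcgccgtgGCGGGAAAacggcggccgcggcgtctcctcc
In these windows the match began 8, 28 and 31 bases before the start, in that order. DTL had an intensity of 78.5 with siBRAF against 471 with siCont, and GINS2 of 57.5 against 291. The GINS2 probe set is shared between transcripts, and without such probe sets the difference of GINS2 was 0.14 and the list had 24 of 31 lower.

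**Figure D3:**
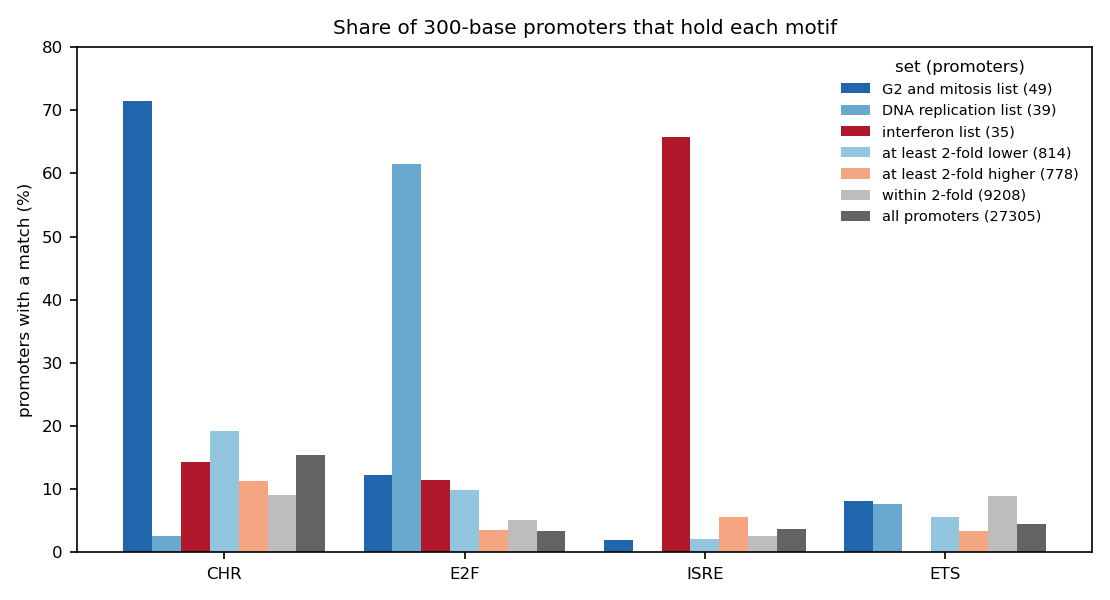
Percent of 300-base RefSeq promoters that hold a CHR, E2F, ISRE or ETS match on either strand (bars), in 3 gene lists, in genes at least 2-fold lower, at least 2-fold higher or within 2-fold with siBRAF in normal medium, and in all promoters. CHR matches reach 71.4% in the mitosis list, E2F matches 61.5% in the replication list and ISRE matches 65.7% in the interferon list, while ETS matches are at 5.53% in lower genes and 8.88% in genes within 2-fold.

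The G1 machinery differed less evenly than the S phase and mitotic genes. Of 27 G1 cyclins, kinases and inhibitors 6 were at least 2-fold lower and 1 higher, beside 7.62% and 7.28% over all genes. The median was -0.38. Cyclin D1, the ERK-driven cyclin that opens G1 and is encoded by CCND1, read 287 with siBRAF against 835 with siCont. CCNE2, a cyclin E gene, read 46.4 against 233 and CDK2 143 against 488, whereas CCNE1 (0.01), CDK4 (-0.18) and CDK6 (-0.38) were within 2-fold. The inhibitor CDKN1A, which encodes p21, read 3224 with siBRAF against 532 with siCont. CDKN1B, which encodes p27, read 794 with siBRAF against 463 with siCont, within 2-fold. E2F1 differed by -0.87 and the retinoblastoma relative RBL1 by -1.55, while RBL2, the relative that acts in resting cells, differed by 0.67.

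Genes tied to quiescence and FOXO factors were at least 2-fold higher in 9 of 24 and lower in 0, with a median of 0.72. Without shared probe sets 3 of 17 were higher. By sign alone 20 lay above 0 and 4 below it: PDK4 (-0.99), FBXO32 (-0.89), CCNG2 (-0.70) and MXI1 (-0.27). TXNIP, which limits glucose uptake and binds thioredoxin, read 2717 with siBRAF against 204 with siCont, a difference of 3.73 that its 3 probe sets placed between 3.55 and 3.73. The sestrin SESN3 read 265 against 9.63, the siCont signal being below the median. IRS2, an adaptor of the insulin receptor, read 3359.5 with siBRAF against 1202 with siCont, and YPEL5 895 against 269. The FOXO genes themselves were within 2-fold, with FOXO1 at 0.77 and FOXO3 at 0.44.

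Targets of p53 were higher in 13 of 26 and lower in 1, with a median of 0.97. TP53INP1, a p53-induced autophagy and death regulator, read 987 with siBRAF against 63.5 with siCont, and its 2 probe sets differed by 3.94 and 1.34. ZMAT3 (718 against 138), a regulator of splicing, and the sestrin SESN2 (227 against 50.3) were next to CDKN1A. The direct targets MDM2 (0.85) and CCNG1 (0.82) were within 2-fold, and BAX (1.06) and DDB2 (1.13) just past it. The single lower gene was PMAIP1, which encodes the BH3-only protein NOXA, at 96.3 with siBRAF against 420.5 with siCont. In the BCL2 family, BMF, a BH3-only protein, read 125 with siBRAF against 30.1 with siCont, BCL2L11, which encodes BIM, differed by 0.97, and the survival gene MCL1 by -1.10. Of 17 family members 2 were higher and 4 lower (median -0.06), beside 7.28% higher and 7.62% lower over all genes.

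Genes of melanocyte identity differed in both directions. Of 20 with a value, 6 were higher by 2-fold or more and 3 lower, beside 7.28% and 7.62% over all genes, and the median was 0.03. MITF, the lineage master factor, differed by 1.15, and by 0.75 as the mean of its probe sets. TFAP2A, a factor that acts beside MITF in pigment cells, read 369.9 against 111, or 0.57 as the mean, and the melanosome glycoprotein GPNMB 2068 against 339. The calcium-binding S100B, used in the clinic as a melanoma marker, read 1302 with siBRAF against 288 with siCont. TYR (0.00), PMEL (-0.32) and SLC45A2 (0.05) were within 2-fold, at signals near the array median. OCA2 (-1.04), LEF1 (-1.58) and MREG (-1.73) were at least 2-fold lower.

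Neural crest and dedifferentiation genes were higher in 13 of 31 and lower in 6, with a median of 0.66. FOXD3, a factor of premigratory crest, read 489.8 with siBRAF against 52.8 with siCont, and SOX2, of neural stem cells, 1269 against 228. NGFR, the low affinity neurotrophin receptor CD271, read 237 with siBRAF against 25.9 with siCont. ID2 (2.98) and ID3 (1.80), inhibitors of basic helix-loop-helix factors, were both higher. Factors known from switches between melanoma states differed in direction. ZEB2 read 233 with siBRAF against 36.7 with siCont, and SNAI2 151 against 8.42, a siCont signal below the median. ZEB1, by contrast, read 89.6 with siBRAF against 228 with siCont. SOX9 (-0.95) was within 2-fold, and TFAP2C (-1.68), PRRX1 (-1.28) and MSX1 (-1.15) were lower.

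Of 33 receptor tyrosine kinases with a value, 4 were higher and 2 lower, beside 7.28% higher and 7.62% lower over all genes. The median was 0.06. As means of probe sets 1 of 26 was higher. The higher genes NTRK2 (128 against 4.19), MERTK (35.1 against 5.83) and EPHA5 (21.3 against 3.31) had siCont signals below the median, and the other was FGFR4 (93.4 against 39.1). MET, the receptor of hepatocyte growth factor, read 612 with siBRAF against 1446 with siCont. Receptors often named in tolerance to BRAF inhibitors were within 2-fold in this medium: EGFR differed by -0.98, AXL by -0.51, PDGFRB by 0.52, ERBB3 by 0.33 and IGF1R by 0.07. Among 27 growth factor genes 5 were higher (3 with 16 added to the intensities), led by EGF (75 against 8.07, the siCont signal below the median) and FGF1 (221 against 43.4). The 4 lower ones were EFNA5 (-1.44), TGFA (-1.25), VEGFC (-1.21) and FGF13 (-1.13).

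Interferon-stimulated genes were higher in 24 of 44 and lower in 1, with a median of 1.08, and with 16 in place of 1 added to the intensities 13 of the 44 were higher. TRIM22, an antiviral ubiquitin ligase, read 229 with siBRAF and 6.04 with siCont, a siCont signal below the median. IFITM1, which blocks virus entry, read 379 with siBRAF against 46.0 with siCont, and IFI6 572 against 141. The ubiquitin-like ISG15 read 552 with siBRAF against 166 with siCont. Among regulators, IRF9 (1.73) and IRF7 (1.09) were at least 2-fold higher. The lower gene was ISG20, an exonuclease, at 253 with siBRAF against 779.9 with siCont. The chemokine CXCL10 read 129 with siBRAF against 45.0 with siCont.

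The interferon-stimulated response element, ISRE, is bound by the complex of STAT and IRF9 proteins and by other IRFs. A short form of it, GAAA repeated after a gap of any 2 letters and searched on either strand, was found in 23 of 35 promoters of the interferon list (65.7%), against 3.65% of all promoters. Among genes at least 2-fold higher the share was 5.66%, within 2-fold 2.58% and among lower genes 2.09%. Off the interferon list, 31 of 758 promoters of higher genes (4.09%) held a match. List members with a match had a median difference of 1.10 (23 genes), and those without one 1.06 (12 genes). The windows below show the match in capitals in IFI44L at chr1:78620328-78620447, IFITM1 at chr11:313920-314039 and IFI27 at chr14:94110616-94110735, all on the plus strand. They were chosen by the size of the difference like the windows above.
IFI44L: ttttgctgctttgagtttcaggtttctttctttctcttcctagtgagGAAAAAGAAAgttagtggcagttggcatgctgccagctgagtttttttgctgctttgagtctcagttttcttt
IFITM1: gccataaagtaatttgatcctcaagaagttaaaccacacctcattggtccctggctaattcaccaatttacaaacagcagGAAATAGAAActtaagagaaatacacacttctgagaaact
IFI27: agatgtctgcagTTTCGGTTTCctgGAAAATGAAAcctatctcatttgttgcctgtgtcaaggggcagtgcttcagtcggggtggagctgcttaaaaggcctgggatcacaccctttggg
The match began 73 bases before the start in IFI44L and 40 before it in IFITM1, and IFI27 held 2, the farther one 108 bases before it. IFI44L read 155 with siBRAF and 11.5 with siCont, and IFI27 55.8 with siBRAF and 8.26 with siCont, with both siCont signals below the median.

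Genes on a list of antigen presentation and immune ligands were higher in 12 of 35 and lower in 2, with a median of 0.59. Without shared probe sets 7 of 26 were higher. The class I heavy chain HLA-B read 3624 with siBRAF against 1568 with siCont, and HLA-E 1232 against 573. Class II genes were higher as well, with HLA-DRA at 4398 with siBRAF against 1772 with siCont, its chaperone CD74 at 1623 against 731 and the peptide loader HLA-DMA at 1037 against 410.1. HLA genes resemble each other in sequence, and what their probe sets share was not tested. The 2 lower genes were NT5E (37.5 against 412), the ectonucleotidase CD73, and CD55 (150.1 against 1489.9), which protects cells from complement.

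Cytokine genes differed in both directions, with 7 of 27 at least 2-fold lower and 4 higher, beside 7.62% and 7.28% over all genes. The median was -0.34. Without shared probe sets 1 of 19 was higher. IL11 read 18.7 with siBRAF against 251 with siCont and LIF 69.1 against 199.8, both ligands of receptors with gp130. IL1A read 34.9 with siBRAF against 135 with siCont and the neutrophil chemokine CXCL8 514 against 1261. In the other direction, the monocyte chemokine CCL2 read 991 with siBRAF against 172 with siCont. Of immune cell markers PTPRC, CD14, CD2 and CD8A lay below the median on both arrays. Of 6 T cell markers 3 reached the median, the highest reading being 30.8 with siBRAF and 31.3 with siCont. Of 5 myeloid markers 3 reached it, among them LYZ at 35.4 with siBRAF and 124 with siCont. The summed intensity of the T cell markers was 101 with siBRAF and 103 with siCont. For the myeloid markers it was 97.5 and 183, nearly all of that gap being LYZ. Of 6 markers of keratinocytes and epithelia 3 reached the median, the highest reading being 1417 with siBRAF and 1371 with siCont.

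**Figure D4:**
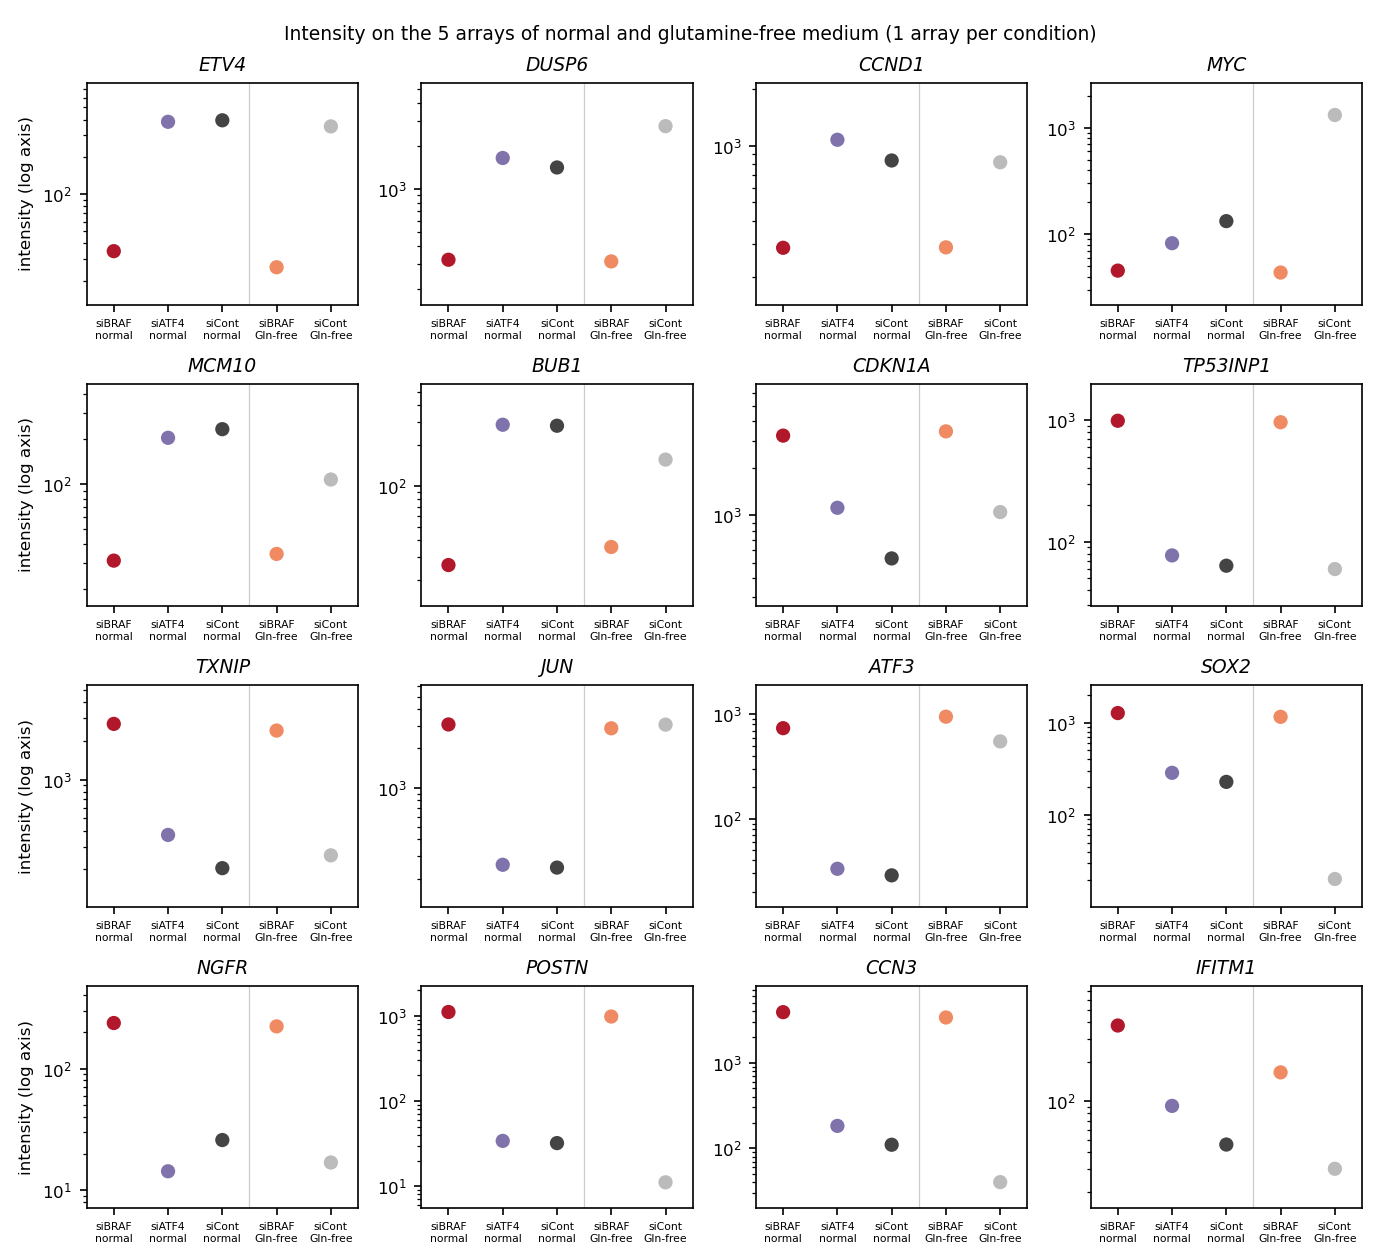
Intensity (log axis) of 16 genes on the arrays of normal medium (siBRAF, siATF4, siCont) and of glutamine-free medium (siBRAF, siCont), 1 point per array. The siBRAF points of both media lie within 2-fold of each other for every gene shown but IFITM1 (379 in normal, 165 in glutamine-free medium), and on this log axis the siATF4 points lie nearer to siCont than to siBRAF in normal medium; JUN and ATF3 are high on the siCont array without glutamine, where they read 3049 and 551.

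Genes of the extracellular matrix held many of the highest differences. Of 23 collagen genes 12 were higher by 2-fold or more and 2 lower, and the median was 1.10. Without shared probe sets 7 of 15 were higher, and with no filter on low signals the median of 33 collagen genes was 0.43. COL5A2 read 5253 with siBRAF against 883 with siCont, COL5A1 480.2 against 129 and COL9A3 3291 against 1067. The basement membrane pair COL4A1 (-0.63) and COL4A2 (-0.56) and the fibroblast collagen COL1A1 (0.01) were within 2-fold. COL13A1, a transmembrane collagen, stood on the other side at 32.5 with siBRAF against 509 with siCont, and its 3 probe sets lay between -3.93 and -0.89. Among 50 matrix glycoproteins and proteoglycans 15 were higher and 3 lower (median 0.29). Periostin, POSTN, read 1113 with siBRAF against 32 with siCont, a difference of 5.08. CCN3, a matricellular protein of the CCN family, read 3889.8 with siBRAF against 110.1 with siCont, and MGP, an inhibitor of calcification, 2095 against 90.4. The relatives of CCN3, CCN1 (1.26) and CCN2 (1.11), both YAP targets, were just past 2-fold higher. Fibroblast markers were not high as a group: of 7, COL1A2 and FAP lay below the median on both arrays, THY1 differed by 0.03 and DCN by -0.19, and LUM read 249 with siBRAF against 51.6 with siCont. Their summed intensity was 490.1 with siBRAF and 284 with siCont, the part of other cells in the matrix values was not tested, and of glial markers S100B was at least 2-fold higher and GFAP below the median on both arrays.

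Proteases and adhesion receptors differed in both directions. The collagenase MMP1 read 7.19 with siBRAF, below the median, and 143 with siCont. The gelatinase MMP2 read 1412 with siBRAF against 620.3 with siCont but was within 2-fold (0.36) as the mean of its probe sets, and the membrane protease MMP15 361 against 33.0, which became -0.041 without shared probe sets. TIMP2, an inhibitor that also serves MMP2 activation, read 2009 with siBRAF against 739 with siCont, while TIMP3 read 321 against 1385. The urokinase receptor gene PLAUR read 153 with siBRAF against 449 with siCont. In all, 8 of 23 were higher and 3 lower, with 5 of 21 higher as means of probe sets. Among 32 integrins and cadherins 6 were higher and 5 lower, beside 7.28% and 7.62% over all genes. As means 2 of 27 were lower. ITGB3, the integrin beta 3 chain of invasive melanoma, read 17.7 with siBRAF against 302 with siCont, and its 6 probe sets lay between -4.02 and -1.04. CDH19, a cadherin of the crest and Schwann lineage, read 1314 with siBRAF against 242 with siCont, and CDH6 379 against 8.44, the siCont signal below the median. The 6 probe sets of CDH6 lay between 0.71 and 5.33. The adhesion molecule ALCAM read 1496 with siBRAF against 245 with siCont.

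Genes of the TGF beta and BMP, WNT and NOTCH, and YAP and TEAD lists differed in both directions. Of 41 genes of the TGF beta and BMP pathway 6 were higher and 3 lower (median 0.14), and 3 of 35 were higher as means of probe sets. The ligand INHBA, the activin A subunit, read 628 with siBRAF against 1940.1 with siCont, its antagonist FST 115 against 769, and the BMP effector SMAD9 75.3 against 23.4. Of 41 WNT and NOTCH genes 4 were higher and 5 lower (median 0.01), with DKK3 at 2039 with siBRAF against 174 with siCont and the WNT factor LEF1 at 88.3 against 266. As means of probe sets 2 of 35 were higher and 3 lower. Over all genes 7.28% were higher and 7.62% lower. YAP and TEAD targets were higher in 5 of 25 and lower in 2 (median 0.23), with 2 of 25 higher as means, while YAP1 (-0.40), TEAD1 (0.23) and WWTR1 (0.00) were within 2-fold. IGFBP3, on that list but also a target of other pathways, read 126 with siBRAF against 749 with siCont. Axon guidance genes were higher in 7 of 32 (3 of 23 as means) and lower in 1 (median 0.40), with SEMA3C at 3391 with siBRAF against 719 with siCont and its receptor NRP2 at 447 against 99.2.

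Several genes of glycolysis and of ribosome and nucleotide synthesis were lower with siBRAF, and nearly all respiration genes were within 2-fold. Of 29 genes of glucose uptake and glycolysis 8 were at least 2-fold lower and 1 higher, with a median of -0.62. Hexokinase HK2, which ERK and MYC are known to drive, read 154 with siBRAF against 591 with siCont, and LDHA, the lactate dehydrogenase, 3134 against 7802. PDK1, which keeps pyruvate out of mitochondria, read 60.8 with siBRAF against 264 with siCont. Of 37 genes of mitochondrial respiration 1 was lower, the rRNA methylase TFB1M (83.8 against 314, at -0.71 without shared probe sets), and 0 were higher, with a median of -0.12. The coactivator PPARGC1A, the known MITF-driven regulator of mitochondria, read 15.9 with siBRAF and 14.8 with siCont, near the median on both arrays. Ribosome biogenesis and nucleotide synthesis genes were lower in 16 of 41 and higher in 0, with a median of -0.85. FBL, the rRNA methyltransferase fibrillarin, read 764 with siBRAF against 1742 with siCont, and the purine enzyme PAICS 665 against 1776 (-0.87 without shared probe sets). As means of probe sets 10 of the 41 were lower. Lysosome and autophagy genes were higher in 7 of 38 and lower in 0 (median 0.34), among them the protease CTSA (1981 against 644) and the autophagy protein TP53INP2 (651 against 82.9). Cholesterol and fatty acid genes were within 2-fold in 26 of 29, the elongase ELOVL6 (68.7 against 310.0) being the lowest. Over all genes 14.9% were at least 2-fold apart either way.

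Part of the amino acid genes were lower with siBRAF, and the stress factor targets were split. Of 21 synthesis and one-carbon genes 9 were lower and 0 higher (median -0.60), or 5 lower as means of probe sets, and with no filter the median was -0.38. PHGDH, the first enzyme of serine synthesis, read 105 with siBRAF against 388 with siCont and PSAT1, the next one, 459 against 1115. Of 21 transporters 6 were lower and 1 higher (median -0.31), with the arginine carrier SLC7A1 at 199.7 with siBRAF against 919 with siCont and the cystine carrier SLC7A11 at 85.3 against 262. ATF4 read 1519 with siBRAF and 1814 with siCont, and 534 on the siATF4 array. Of 21 ATF4 and CHOP targets 4 were lower and 3 higher (median -0.26), beside 7.62% and 7.28% over all genes. The higher ones were ATF3, SESN2 and NUPR1 (71.7 against 15.7), and CHAC1 (0.17) and DDIT3 (0.81) were within 2-fold.

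Histone genes differed by kind. The replication-linked genes H2BC12 (2074 against 506), H2BC5 (791 against 117), H1-2 (1041 against 209) and H2AC6 (728 against 93.8) were among 8 of 17 that were higher. The variants H2AZ1 (2066 against 4978), H2AX (381 against 881) and CENPA (40.7 against 132) were the 3 lower ones. H2AX was at -0.74 as the mean of its probe sets, and 1 of 9 histone genes was lower without shared probe sets. Transcripts of replication-linked histone genes mostly lack a poly(A) tail in dividing cells, and copies of these genes are alike in sequence, so what these probe sets read of each is uncertain. Of 30 chaperones 2 were higher and 2 lower, beside 7.28% higher and 7.62% lower over all genes, and the median was -0.05. The cytosolic HSP90AA1 differed by -0.62.

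Some of the largest differences belonged to genes on none of the lists. SCRG1, a small secreted protein known from scrapie-infected brain, read 1234 with siBRAF against 17.2 with siCont, a difference of 6.08. The siCont signal lay just above the median of 15.1 on its array, and SCRG1 read 6.78 with siATF4. OLFML2A, a matrix protein of the olfactomedin family, read 2776 with siBRAF against 63.8 with siCont, MOXD1, a monooxygenase-like protein, 3061 against 72.8, and GASK1B 1421 against 35.6. The other genes among the 15 highest with both signals above the median were CYP1B1 (4.38), SCUBE3 (4.24), ZNF536 (4.11), FREM2 (3.96) and ADAMTS15 (3.88), beside POSTN, CCN3, MGP, ATF3, TP53INP1 and TXNIP. Genes whose siCont signal lay below the median included AQP4, a water channel, at 139 against 2.77, PRUNE2 at 227 against 5.47, the matrilin MATN2, a matrix adaptor, at 139 against 4.02 and the chemokine CXCL14 at 173 against 5.91. Their sizes therefore rest on signals near background.

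At the low end, SLCO4A1, a carrier of organic anions and thyroid hormone, read 29.3 with siBRAF against 659 with siCont, a difference of -4.45. CEMIP, which helps to degrade hyaluronan, read 49.5 with siBRAF against 825 with siCont, but its other probe set, not shared between transcripts, differed by -0.87. TMEM158, a membrane protein induced by RAS, read 32.5 with siBRAF against 370.3 with siCont, the neuropeptide gene NMU 17.9 against 197, and the peroxisomal oxidase ACOX2 34.1 against 360.0. The noncoding LINC00973 differed by -3.19. With siBRAF signals below the median, MMP1 (-4.14), IL1RL1 (-3.70), ADGRF1 (-3.64), KIAA0040 (-3.38), ITGA9 (-3.33), EFCAB13-DT (-3.29), the chloride channel ANO1 (-3.23) and SERPIND1 (-3.14) were lowest. The probe set nearest to no difference was within 2-fold for IL1RL1 (-0.52) and ANO1 (-0.97).

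The direction of the calls varied with the siCont signal of the gene, which is itself a term of the difference. Of the 3345 genes with the lowest siCont signals 399 were higher and 57 lower with siBRAF, and of the 3343 with the highest signals 90 were higher and 408 lower. Because the siCont signal enters the difference, both pairs of counts are tilted in these directions in advance. A gene low on both arrays received no difference, so the first pair of counts is also partly fixed by that rule. Neither pair shows that the knockdown acts by gene level. For genes with 2 or more probe sets, all probe sets had the same sign in 90.5% of 494 higher and 91.5% of 494 lower genes, and all were at least 2-fold apart in 49.4% and 52.6%. Among 5519 genes within 2-fold, the sign was shared in 65.5%.

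The ETS motif CCGGAAGT is a site through which ERK-driven ETS factors can act. It was found on either strand in 5.53% of promoters of lower genes, 3.34% of higher genes, 8.88% of genes within 2-fold and 4.44% of all promoters. None of 14 promoters of feedback inhibitors held it, which says only that these letters are not in these windows.

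The same knockdown without glutamine gave a pair of arrays that shares none with the pair in normal medium. There, of 13519 genes with a value, 1749 (12.9%) were higher by 2-fold or more and 1480 (10.9%) were lower. Of 13152 genes with a value in both media, 748 were higher in both, which was 78.2% of those higher in normal and 43.1% of those higher in glutamine-free medium. For lower genes, 568 were shared, 57.2% and 40.1% of the lists. Between the siBRAF arrays of both media, 19 of 13164 genes (0.144%) were at least 2-fold apart, with 8 (0.0608%) higher and 11 (0.0836%) lower without glutamine. The actin 3' minus 5' value was 0.279 on the siCont array without glutamine and 0.161 on its siBRAF array.

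List medians in the media lay close together for some lists and apart for others. Mitosis genes had a median of -1.69 without glutamine (45 of 55 lower) and replication genes -0.56 (15 of 44 lower), both nearer to 0 than in normal medium. Feedback inhibitors (-1.15) and ERK-driven transcription factors (-1.76, with 20 of 27 lower) lay further below 0, and so did ATF4 and CHOP targets (-2.78, with 16 of 21 lower). Receptor tyrosine kinases had 13 of 32 higher without glutamine, against 4 of 33 in normal medium. Glycolysis genes had a median of -0.01 there. Interferon genes (median 1.12, 24 of 45 higher) and collagens (0.95, 12 of 24 higher) gave values close to those in normal medium. The differences between media were not tested.

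**Figure D5:**
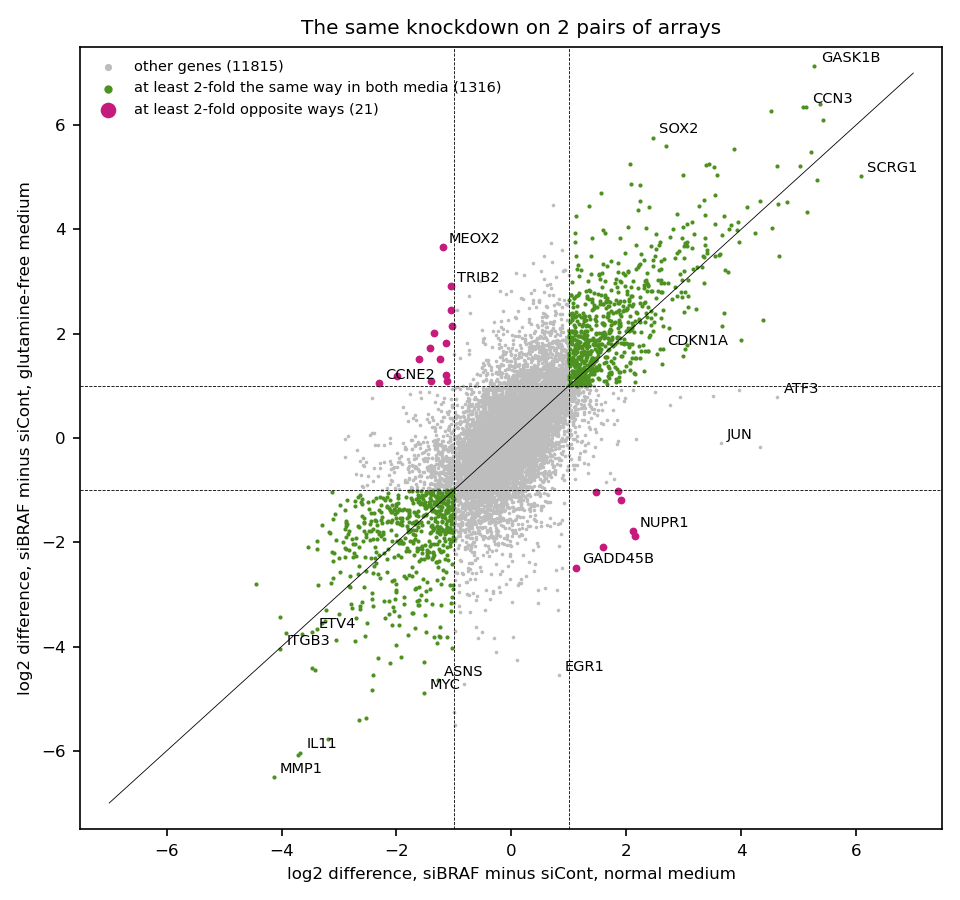
Difference with siBRAF in glutamine-free medium (vertical) against the difference in normal medium (horizontal) for 13152 genes, siBRAF minus siCont on the log2 scale, with the diagonal of equal values and dashed lines at 2-fold. Green genes (1316) lie past 2-fold in one direction on both axes, and 21 pink genes are at least 2-fold apart in opposite ways.

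A set of 21 genes was at least 2-fold apart in opposite ways in the media. In normal medium 7 of them were higher with siBRAF, and 14 were lower. SESN2, an amino acid sensor, read 227 with siBRAF and 50.3 with siCont in normal medium, and 208 with siBRAF and 764 with siCont without glutamine. The stress protein NUPR1 read 71.7 and 15.7 in normal medium, and 66.5 and 232 without glutamine, in the same order. GADD45B read 126 and 57.5, then 118 and 662. In the other direction, the cyclin gene CCNE2 read 46.4 with siBRAF and 233 with siCont in normal medium, and 51.8 with siBRAF and 24.4 with siCont without glutamine. The pseudokinase TRIB2 read 244 and 506, then 277 and 35.7. In these 5 genes the siBRAF arrays of both media lay close together, and the siCont arrays lay on either side of them. That pattern follows largely from the choice of genes with opposite differences, since 0.144% of genes were at least 2-fold apart between the siBRAF arrays. IL17RD, an inhibitor of FGF and ERK signalling, was not among the 21, as its difference without glutamine was 0.77. IL17RD read 34.5 with siBRAF and 190.3 with siCont in normal medium, and 28.3 and 16.2 without glutamine, in the same order.

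The siATF4 array in normal medium shows how the same genes stood after another siRNA, set against the same siCont array. There 117 of 13187 genes (0.887%) were at least 2-fold apart, 64 (0.485%) higher and 53 (0.402%) lower. BUB1 read 284 with siATF4, against 279 with siCont, and MCM10 204 against 234. ETV4 read 383 with siATF4 and DUSP6 1642. CDKN1A read 1118 with siATF4, between the siBRAF value of 3224 and the siCont value of 532, and TXNIP 371. POSTN read 34, and IFITM1 91.3. MMP1 read 443 and IL11 820.5 with siATF4, the opposite side of siCont from siBRAF.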

How the data were processed

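The 8 arrays hold biotin-labelled cRNA from 5 ug of total RNA per sample, per the labels' protocols. The authors deposited linear probe set intensities. RMA, which corrects background, normalizes and summarises probes, made them, per the submitters' processing notes. Its version is not given in the sources used here. Of 54675 probe sets, 62 are controls. The platform's annotation gives 1 symbol for 41091, which named the genes here, several for 1801 and none for 11721. The members and gene lists were chosen with earlier results of these data known.

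Intensities were used as deposited, as log2(intensity + 1), which understates the differences of low genes. A gene was read by the probe set that was brightest on average over the 5 arrays used here, siBRAF and siCont in both media and siATF4, whose medians were 14.8 to 15.5. It received a difference where the higher of its 2 values reached the 50th percentile of that array, and was called at 2-fold. The other 3 arrays (DMSO and vemurafenib) lie on another scale and were not used. The number of arrays limits the precision, and with 1 array per condition no test was made.

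Outside the lists, genes were named as the 15 highest and 15 lowest with both values above the array median, the 8 at each end with 1 value below it, and the 6 at each end of the difference between media. The counting of calls was tested on simulated data with large added differences, equal in all probe sets of a gene, and little noise. That checks the counting and says nothing on how reliable a call is on the real arrays. Promoters came from RefSeq (GRCh38.p14). Python 3.11.15, numpy 2.4.6, pandas 2.3.3 and matplotlib 3.10.9 were used. Alternatives were 16 in place of 1 added to the intensity, a filter at the 75th percentile or none, the mean of all probe sets, leaving out probe sets shared between transcripts, quantile normalization and a fold of 3.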

Additional observations from a re-analysis of the deposited data

Results flagged for a closer look

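For 8 genes named in the text, the difference with siBRAF ran opposite ways in the media by at least 2-fold each, and the difference between the media was not tested. In normal medium SESN2 (2.15), NUPR1 (2.12) and GADD45B (1.12) were higher with siBRAF, and without glutamine they differed by -1.88, -1.79 and -2.48. CCNE2 (-2.30), SHISA2 (-1.99), FGF13 (-1.13), B4GAT1 (-1.05) and TRIB2 (-1.05) were lower in normal medium. Without glutamine these 5 differed by 1.06, 1.19, 1.21, 2.46 and 2.92. The siBRAF values of both media were 120 and 134 for SHISA2, 107 and 139.7 for FGF13, and 122 and 135 for B4GAT1, in the order of normal and glutamine-free medium. The siCont values in that order were 482 and 57.9 for SHISA2, 235 and 60.0 for FGF13, and 255 and 23.9 for B4GAT1. The calls of GADD45B, B4GAT1 and TRIB2 lie near 2-fold in normal medium, and GADD45B was at 0.31 without shared probe sets.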

How the results depend on the processing

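No paired analysis was possible because each condition has 1 array, with no replicate number to share, and the other medium is another condition and not a replicate. The counts of 974 higher and 1019 lower genes became 657 and 789 with 16 added to the intensity, 685 and 829 where the filter was the 75th percentile, 677 and 761 when a gene's probe sets were averaged, 786 and 776 without shared probe sets, and 1006 and 1010 under quantile normalization. At a fold of 3 they were 396 and 417. All 657 and 789 genes were among the main calls, as were 639 and 726 of those from the mean of probe sets. Of 197 named genes at least 2-fold apart, 188 stayed so in the same direction with 16 added, 172 of 193 with the mean of probe sets, 138 of 146 without shared probe sets and 194 under quantile normalization. Without shared probe sets the sign turned for GINS2 (0.14) and MMP15 (-0.041), and the cause was not tested. With the mean of probe sets CCNB2 (-0.998), H2AX (-0.74), MCL1 (-0.84), BUB3 (-0.56), HMGA2 (-0.92), SPRED2 (-0.69), IL1A (-0.98), CD74 (0.70), NRP2 (0.95), SMAD9 (0.86) and ASNS (-0.59) were within 2-fold, and with 16 added KSR2 (0.71), EPHA5 (0.95), FGFR4 (0.99), IRF7 (0.95), HRAS (-0.98) and OCA2 (-0.80). Without shared probe sets MSX1 was at -0.85 and PAICS at -0.87. Of further list counts, with the mean of probe sets quiescence genes were higher in 5 of 24, ERK-driven transcription factors in 3 of 26, and ATF4 and CHOP targets lower in 2 of 19, and without shared probe sets glycolysis genes were lower in 5 of 18 and lysosome genes higher in 4 of 26. Without shared probe sets the medians moved to -0.65 for ERK-driven transcription factors, -0.70 for the G1 genes, -0.75 for amino acid transporters and 0.47 for quiescence genes. The collagen median was 0.78 with 16 added, and the protease list median turned to -0.12 without shared probe sets. Signal over background limits the sizes for genes with 1 value below the array median.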
